A study of Mus musculus and Acomys cahirinus with 84 samples.

Results

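Primary skin fibroblasts from C56BL6 mice (spelled as in the labels) were compared 12 d after 20 Gy of gamma irradiation with untreated cultures that had been passaged. The members are the 8 libraries of these groups, 4 labelled 20 Gy and 4 labelled untreated passaged, out of 84 in the series, chosen by title and numbered 1 to 4 in each group. Each number carries the same code in the library names of every C56BL6 group at 12 d. The labels do not say whether a code stands for a culture or an animal. For reference, 4 C56BL6 libraries labelled only untreated at 12 d, 4 C56BL6 libraries given 10 Gy, and 4 wild mouse libraries each of 20 Gy and untreated passaged were read in the same way. The labels name no transgene, strain beyond C56BL6, age or passage number, and they do not say how long the culture labelled only untreated went without passage. All of these libraries are polyA RNA in one labelled batch.

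Ionising radiation breaks DNA, and the protein kinase ATM signals the breaks to the transcription factor p53. p53 raises the cyclin-dependent kinase inhibitor p21 (Cdkn1a), which keeps RB family proteins active, and these with the MuvB complex silence genes of DNA replication and mitosis. Fibroblasts that stay arrested for days can enter senescence, a state known for loss of lamin B1, enlarged lysosomes, secreted cytokines and proteases, and interferon signalling. An untreated passaged culture is a dividing reference, so division and irradiation differ together between these groups.

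Counts per library ran from 27.07 to 34.85 M in the passaged group and from 32.47 to 36.89 M at 20 Gy. Fibroblast markers were abundant in all 8, with a summed level of 18100 to 26500 CPM (read counts scaled to library size) in passaged and 10900 to 15300 CPM in 20 Gy libraries. Replicate 1 stood apart in every C56BL6 group: the basal keratinocyte keratin Krt14 measured 248 CPM in its passaged library and 167 CPM in its 20 Gy library, against at most 0.0295 CPM in the other 6. Krt5 measured 146 and 72.3 CPM in the same libraries, while the epithelial adhesion genes Cdh1 and Epcam stayed below 1 CPM in all 8. In the other replicates Krt5 measured 0 to 0.0295 CPM in passaged and 0.87 to 1.15 CPM in 20 Gy libraries. The leukocyte list, with the pan-leukocyte gene Ptprc at no more than 0.162 CPM, summed to 9.72 to 26.9 CPM in passaged and 26 to 37.7 CPM in 20 Gy libraries. The endothelial list summed to 4.08 to 5.7 and 8.31 to 29.7 CPM. The pericyte list summed to 136 to 373 and 152 to 251 CPM. The part of such cells in the results below was not tested. In bulk RNA, fewer cells of a type and less RNA per cell cannot be told apart.

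Of 15208 genes tested with edgeR's quasi-likelihood test, 6327 passed a Benjamini-Hochberg adjusted p of 0.05, which is 41.6% of them: 20.4% were higher at 20 Gy (3096 genes) and 21.2% were lower (3231 genes). At least 4-fold changes were more often increases, with 571 genes higher and 253 lower. Without replicate 1 the count was 7527, and without replicate 2 or 3 it was 3898 or 3975. Scaling by total counts alone moved the median log2 fold change of all genes from 0.01 to 0.14 and the split to 4327 higher and 2136 lower. A block for the replicate number raised the share that passed to 56.1%. The groups did not overlap for 40.7% of the genes tested.

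**Figure D1:**
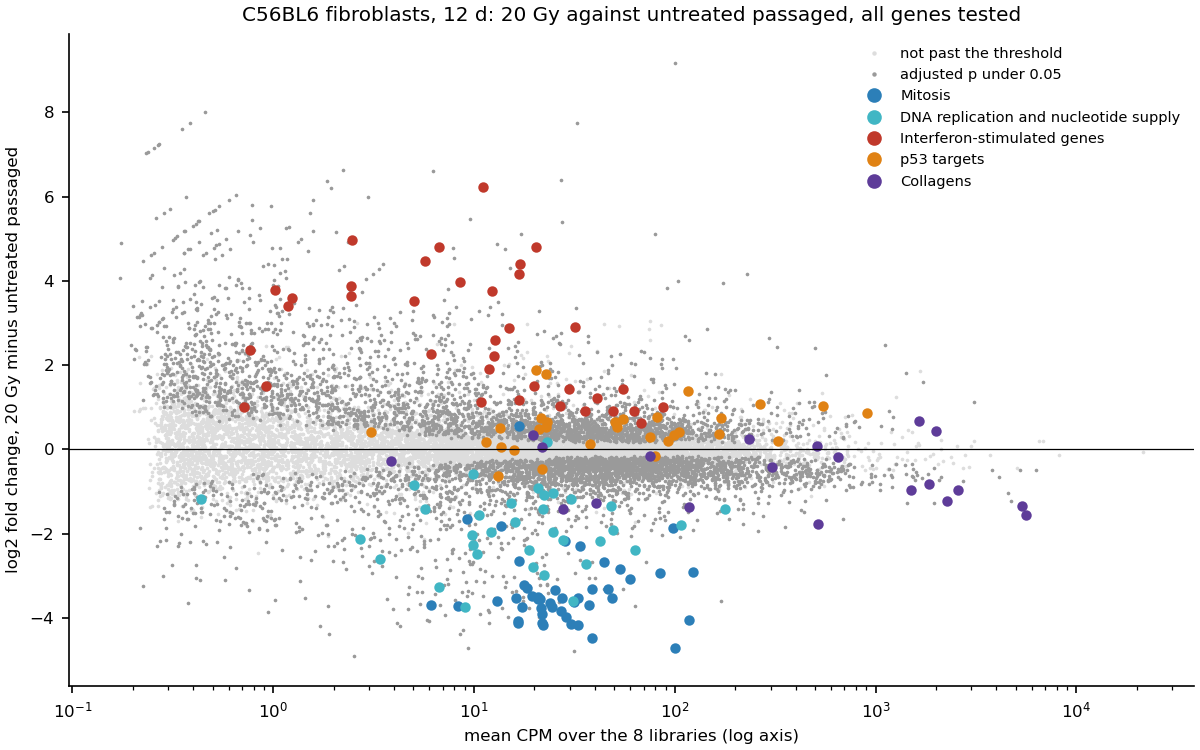
Log2 fold change of each of the 15208 genes tested (vertical axis, 20 Gy minus untreated passaged) against its mean level over the 8 libraries (horizontal log axis, CPM), with 5 gene lists in colour. Mitosis genes lie between -4.71 and 0.55 and interferon-stimulated genes between 0.64 and 6.23.

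The short promoter stretches below are shown because they belong to genes of the mitosis, replication and interferon lists and carry the elements through which those groups are known to be controlled. They were taken from RefSeq (build GRCm38.p6), 5′ to 3′ on the gene's strand, and all lie before the annotated start. In the first 5, genes of mitosis, capitals mark a CCAAT box (CCAAT, or ATTGG on the other strand) and a CHR element (TTTGAA or TTTAAA, or TTCAAA on the other strand), the element bound by MuvB complexes.
Kif14, chr1:136467746-136467821, plus strand: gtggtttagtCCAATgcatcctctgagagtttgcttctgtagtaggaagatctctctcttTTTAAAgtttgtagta
Mki67, chr7:135716462-135716530, minus strand: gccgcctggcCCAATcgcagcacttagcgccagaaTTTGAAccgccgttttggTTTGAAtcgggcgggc
Kif11, chr19:37376327-37376378, plus strand: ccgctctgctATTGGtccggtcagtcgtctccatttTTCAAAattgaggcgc
Cdk1, chr10:69352913-69352970, minus strand: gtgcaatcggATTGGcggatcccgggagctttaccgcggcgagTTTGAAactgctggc
Top2a, chr11:99024197-99024257, minus strand: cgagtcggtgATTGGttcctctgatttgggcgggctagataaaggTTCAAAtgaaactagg
In the replication gene Mcm5, capitals mark overlapping E2F-type matches.
Mcm5, chr8:75109346-75109377, plus strand: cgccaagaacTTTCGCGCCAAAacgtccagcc
In the interferon-stimulated genes, capitals mark matches to the interferon-stimulated response element (ISRE, on either strand).
Ifit1, chr19:34640775-34640823, plus strand: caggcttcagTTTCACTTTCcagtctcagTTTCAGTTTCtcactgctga
Isg15, chr4:156200865-156200906, minus strand: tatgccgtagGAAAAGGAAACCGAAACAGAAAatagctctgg

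Counted over 250 bases before and 50 after the start, on both strands, 82.5% of 40 promoters of 38 matched mitosis genes held a CHR match, and 72.5% held a CHR match together with a CCAAT box. Over all 32851 promoters the shares were 27.6% and 10.7%. For 31 promoters of 27 matched replication genes, 38.7% held an E2F match (TTTCCCGC, TTTGGCGC or TTTCGCGC), against 1.8% of all promoters. For 28 promoters of 25 matched interferon-stimulated genes, 14 held an ISRE match, against 3.4% of all. A match is a run of letters in this window and not a measured binding site.

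Genes of cell division were lower at 20 Gy almost without exception. Of 46 mitosis genes, all tested, 45 fell and 1 rose, with a median log2 fold change of -3.54. Mki67, which encodes the proliferation antigen Ki-67 (ENSMUSG00000031004, GRCm39 chr7:135291513-135318090), measured 217, 171, 218 and 169 CPM in passaged replicates 1 to 4 and 12.0, 4.78, 8.55 and 3.90 CPM at 20 Gy. The groups lay far apart, a 26.1-fold lower level (log2 fold change -4.71, SE 0.38, edgeR adjusted p 7.07e-05). Ccna2, the cyclin of S phase and mitotic entry, measured 83.9, 60.6, 78.5 and 73.4 CPM against 4.42, 2.14, 3.99 and 2.72 CPM, a change of -4.46. The S-phase protein gene Pclaf had the largest fall among genes named by rank, -4.78, from 48.8 to 66.8 CPM down to 1.01 to 3.97 CPM. The motor proteins Kif14, Kif23, Kif11 and Kif2c, the helicase Pif1, the spindle protein Troap and the checkpoint kinase Bub1 fell by 4.13 to 4.72 on the log2 scale, with no overlap between groups. Pttg1, which encodes securin and was picked out after its values were seen, was the only mitosis gene to rise. It measured 12.6, 15.5, 13.1 and 13.7 CPM in passaged and 21.3, 21.3, 18.2 and 18.5 CPM in 20 Gy libraries (log2 fold change 0.55, SE 0.10, edgeR adjusted p 0.00359). Pttg1 was also higher than passaged in the culture labelled only untreated (0.45, edgeR adjusted p 0.00879). For 20 Gy minus untreated it was 0.12 (edgeR adjusted p 0.415). In wild mouse cells Pttg1 fell at 20 Gy against passaged (-2.03, edgeR adjusted p 0.016). The C56BL6 change minus the wild change was 2.6 (edgeR adjusted p 0.12), or 2.67 with the replicate block (0.00243).

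Replication genes fell in 32 of 34 cases, with a median of -1.93. Mcm10, needed to fire replication origins, fell by 3.74 on the log2 scale, and Mcm5, a subunit of the replicative helicase, measured 79.4, 44.2, 54.0 and 52.5 CPM against 7.44, 3.5, 4.84 and 3.07 CPM. Rrm2, the regulated subunit of ribonucleotide reductase, measured 154 to 180 CPM in passaged and 34.3 to 54.7 CPM at 20 Gy, a change of -1.80. The origin gene Gins4 (0.17, adjusted p 0.217 in edgeR) and the flap endonuclease gene Fen1 (-1.18, 0.0701) did not pass. With the replicate block Fen1 passed (edgeR adjusted p 0.0214), and without replicate 1 or by total counts Gins4 was higher (0.0325 and 0.0368). Fen1 counts were low, and reads shared with near-identical copies are left out by the authors' counting.

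Genes that repair breaks through homologous recombination and the Fanconi pathway fell in 20 of 22 cases, with a median of -2.68. The exonuclease gene Exo1 measured 9.38 to 11.9 CPM in passaged and 0.523 to 0.836 CPM in 20 Gy libraries, a change of -4.04. Only Fancc and Fancg did not pass, at -0.27 and -0.23.

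Among E2F, RB and MuvB regulators, 12 of 19 fell and 4 rose, where 21.2% of all genes were lower and 20.4% higher. The activators Foxm1 and Mybl2, and the repressor E2f8, changed by -3.32, -3.78 and -3.92. Foxm1 measured 63.3 to 104 CPM in passaged and 7.04 to 10.3 CPM in 20 Gy libraries. The 4 that rose were Rb1 (0.70), its relative Rbl2 (0.65), and the MuvB subunits Lin52 (0.59) and Lin37 (0.37). Rbl2, the p130 protein of quiescent cells, measured 24.5, 25.3, 31.3 and 29.2 CPM against 31.7, 44.3, 50.6 and 45.5 CPM, and without replicate 2 its edgeR adjusted p was 0.0624. Lin37 lost its call without replicate 2 or 3 and Lin52 without replicate 3, which left 2 of the 4 in each case.

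The cyclin-dependent kinase inhibitors moved in both directions. With the G1 cyclins, 3 of 12 genes rose and 5 fell, where 20.4% of all genes were higher and 21.2% lower. Cdkn1a measured 320, 413, 329 and 391.9 CPM in passaged replicates and 637, 801, 789 and 716 CPM at 20 Gy, so every irradiated library was above every passaged one (2.04-fold, log2 fold change 1.03, SE 0.11, edgeR adjusted p 0.000321). Cdkn2b, which encodes p15, measured 16.2, 39.01, 26.6 and 29.6 CPM against 53.8, 105, 88.5 and 78.1 CPM, a change of 1.55. Cdkn2a, which encodes p16 and ARF and whose counts do not separate the 2 products, measured 57.0, 71.0, 34.1 and 45.1 CPM against 86.3, 174, 120 and 101 CPM, a change of 1.23. Cdkn2c, Cdkn1b and Cdkn2d fell by 1.55, 0.54 and 0.52. The G1 cyclins Ccne2 and Ccne1 also fell, Ccne2 by 2.58, all on the log2 scale. Cdkn1b and Cdkn2d lost their calls without replicate 2, 3 or 4 and by total counts, which left 3 that fell. By total counts 6 of the 12 rose in place of 3, with Cdkn1c, Ccnd2 and Ccnd3 added. Cdkn1c groups overlapped (3.84, 3.51, 1.02 and 1.83 CPM against 3.59, 6.59, 4.84 and 6.21 CPM, edgeR adjusted p 0.063, or 0.0234 with the replicate block).

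Of 14 tested nuclear envelope and HMGB genes, 13 fell and none rose, with a median of -0.99. Lmnb1, which encodes lamin B1, measured 72.4, 56.3, 69.3 and 68.9 CPM in passaged and 8.96, 6.93, 7.84 and 8.07 CPM in 20 Gy libraries, an 8.31-fold lower level (SE 0.12 on the log2 scale, edgeR adjusted p 8.55e-06). The chromatin protein gene Hmgb2 measured 32.6 to 40.3 CPM against 4.88 to 6.80 CPM, a change of -2.56. Lmnb2, the gene of lamin B2, fell by 1.21. Lmna, the gene of the A-type lamins, fell by 0.50, with an edgeR adjusted p of 0.0699 without replicate 4 and 0.0562 by total counts.

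Targets of p53 rose in 18 of 30 cases, 1 fell and 11 did not pass, with a median of 0.49. Mdm2, the ubiquitin ligase that degrades p53, measured 191, 197, 148 and 145 CPM in passaged and 363, 395, 337 and 339 CPM in 20 Gy libraries (2.13-fold). Ccng1, encoding cyclin G1, rose by 0.87 and Pmaip1, which encodes the death protein NOXA, by 1.88, although without replicate 2 the adjusted p of Pmaip1 was 0.0563 (edgeR). The kinase gene Plk3, picked out after its values were seen, fell by 0.47. Plk3 lost its call when all 4 C56BL6 groups at 12 d were fitted together (edgeR adjusted p 0.154). In the culture labelled only untreated it measured 3.55 to 11.2 CPM, and 20 Gy was higher by 1.63 (edgeR adjusted p 0.0114). Gdf15, a secreted stress factor, measured 17.2, 15.4, 16.1 and 15.6 CPM in passaged and 8.52, 10.8, 15.3 and 6.57 CPM in 20 Gy libraries, which did not pass (-0.63, edgeR adjusted p 0.0582, or 0.0132 with the replicate block). Bax and Bbc3, which promote cell death, measured -0.15 and 0.05.

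**Figure D2:**
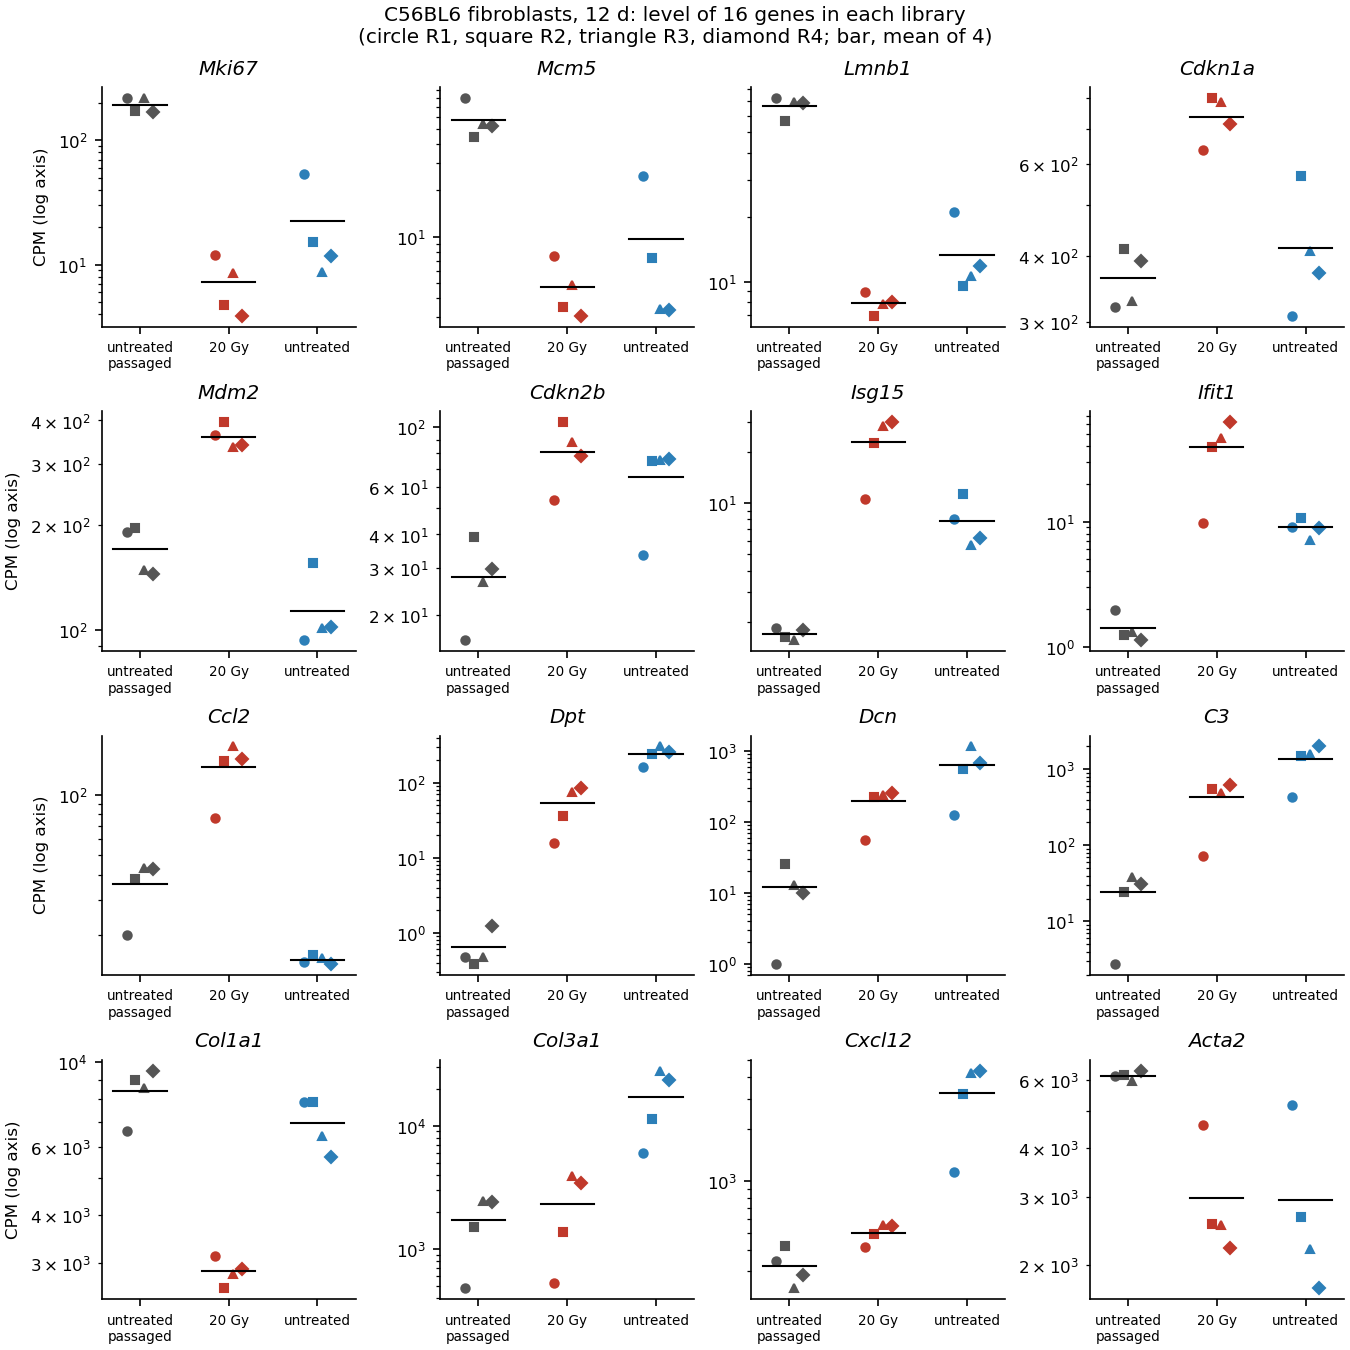
Level of 16 genes in each C56BL6 library (vertical log axis, CPM) for the untreated passaged, 20 Gy and untreated groups at 12 d, with a symbol for each replicate number and a bar at the mean of 4. Mki67 is low in both groups that are not labelled passaged, Cdkn1a and Mdm2 are highest at 20 Gy, and Dpt, Dcn and C3 lie between the other groups at 20 Gy.

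Interferon-stimulated genes rose together. All 36 tested of 37 were higher, with a median of 2.48 against 0.01 over all genes. Ifit1, an RNA-binding antiviral protein gene (ENSMUSG00000034459, GRCm39 chr19:34618271-34627409), measured 1.98, 1.24, 1.31 and 1.14 CPM in passaged and 9.79, 39.2, 46.2 and 61.8 CPM in 20 Gy libraries, a 27.7-fold higher level (log2 fold change 4.79, SE 0.55, edgeR adjusted p 0.000375). Replicate 1 was the lowest of the irradiated libraries and still above all passaged ones. Isg15, a ubiquitin-like protein gene, measured 1.57 to 1.83 CPM against 10.6, 22.4, 28.5 and 29.8 CPM, and Irf7, the factor that amplifies interferon production, 2.42 to 4.46 CPM against 12.6, 26.1, 27.4 and 39.08 CPM. Oas2, an enzyme gene of double-stranded RNA sensing, rose most, by 6.23, from 0.109 to 0.380 CPM up to 5.29 to 44.7 CPM. Ifit3 and Ifit3b, and members of the Oas family, are near-identical copies between which reads may be split. MHC class I presentation genes rose in 13 of 14 cases, with a median of 1.25. The light chain gene B2m measured 275 to 353 CPM against 583 to 771 CPM, and the peptide transporter gene Tap1 rose by 1.5.

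Of 21 tested cytokine and chemokine genes (25 listed), 12 rose and none fell, with a median of 1.62. Csf1, a growth factor gene of macrophages, was lower with the replicate block (-0.40, edgeR adjusted p 0.00835) and without replicate 1. Ccl2, a monocyte chemokine, measured 20.0, 37.95, 43.4 and 42.9 CPM in passaged and 76.4, 148, 174 and 151 CPM in 20 Gy libraries, a 3.84-fold higher level. Cxcl16 rose by 3.02. Il6 measured 2.91, 20.8, 42.1 and 34.03 CPM against 14.8, 51.9, 98.3 and 79.2 CPM. Its groups overlapped, replicate 1 was the lowest in both, and each number was higher at 20 Gy (log2 fold change 1.30, edgeR adjusted p 0.205, or 0.000323 with the replicate block). Cxcl12, a chemokine of stromal cells, rose by 0.65 with overlapping groups, and its edgeR adjusted p was 0.108 without replicate 4 and 0.0944 without replicate 3.

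Of 18 tested matrix proteases and inhibitors, 8 rose and 4 fell, where 20.4% of all genes were higher and 21.2% lower. There were 5 rises without replicate 2 and 2 falls without replicate 3 or 4. Mmp3, which encodes stromelysin, measured 0 to 0.208 CPM in passaged and 3.56, 7.71, 5.27 and 6.87 CPM in 20 Gy libraries. The inhibitor gene Timp3 measured 242, 672, 809 and 800 CPM against 1253, 2855, 2349 and 2298 CPM (1.80, with an edgeR adjusted p of 0.0533 without replicate 2). Serpine2, a protease inhibitor gene, rose by 2.69. The urokinase gene Plau and its receptor gene Plaur fell by 0.78 and 0.98, as did Mmp14 and Mmp11, by 0.50 and 0.49. Mmp14 lost its call without replicate 2, 3 or 4, and Plau without replicate 3 or 4.

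Several of the genes that rose most by rank encode secreted proteins. Saa3, an acute-phase protein gene, measured 0, 0.207, 1.17 and 0.104 CPM in passaged and 8.36, 88.7, 393 and 311 CPM in 20 Gy libraries (log2 fold change 9.16, SE 1.48, edgeR adjusted p 0.00181). Its passaged libraries held 42 counts in all, so the size of the fold is uncertain. The same limit holds for Lcn2 (36 counts), Oas2 (36), Steap4 (15) and Mmp3 (11). Lcn2, encoding lipocalin 2, measured 0, 0.177, 0.511 and 0.553 CPM against 2.13, 61.8, 92.9 and 102 CPM. Dpt, encoding the matrix protein dermatopontin, measured 0.480, 0.384, 0.474 and 1.25 CPM against 15.7, 36.02, 76.7 and 85.1 CPM. Replicate 1 was the lowest irradiated library for each of the 3. Steap4, Gm15987, Pamr1, Serpina3n, Ism1 and Slfn5 rose by 4.88 to 6.60, and Serpina3n lost its call without replicate 2, 3 or 4 (edgeR adjusted p 0.072, 0.0532 and 0.0689). Serpina3n, Saa3 and Slfn5 belong to families with close copies, and Gm15987 may share reads with overlapping genes because counting did not use strand. In the culture labelled only untreated Saa3 measured 11.6 to 1047 CPM. The log2 fold change of 20 Gy minus untreated was -1.08 (Saa3), -1.83 (Steap4), -2.09 (Serpina3n), -2.13 (Ism1) and -1.41 (Slfn5). None of these passed in the main fit, and all did with the replicate block. It was 0.04 (Pamr1), 0.82 (Lcn2), 1.80 (Gm15987) and 3.56 (Oas2). Of these Oas2 passed (edgeR adjusted p 0.00605, or 0.0563 without replicate 3), and Gm15987 did with the block (0.005).

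Complement genes rose in 6 of 11 tested cases and 1, Masp1, fell, with a median of 2.22. C3, the central component, measured 2.76, 24.6, 38.2 and 31.4 CPM in passaged and 72.3, 544, 487 and 622 CPM in 20 Gy libraries, a 17.9-fold higher level. Without replicate 1, 11 of 13 tested rose, and without replicate 2 or 4 only 4 of 11 did. In the IGF axis 3 of 11 genes rose (Igf1, Igf2 and Igfbp6), where 20.4% of all genes were higher. The count was 8 with the replicate block, where 28.3% of all genes were higher, and 5 without replicate 1. Igf1 measured 11.1, 64.0, 32.6 and 39.4 CPM against 69.4, 179, 105 and 112 CPM, with an edgeR adjusted p of 0.106 without replicate 3 and 0.095 without replicate 4.

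Collagens fell in 10 of 20 cases and 1 rose, with a median of -0.62. Col1a1, the main chain of type I collagen, measured 6612, 8963, 8548 and 9517 CPM in passaged and 3129, 2573, 2804 and 2892 CPM in 20 Gy libraries, a 2.92-fold lower level (SE 0.16 on the log2 scale, edgeR adjusted p 0.000213). Col6a3 fell by 1.76. Col3a1, of type III collagen, overlapped between groups (481 to 2473 CPM against 527 to 3882 CPM, log2 fold change 0.44, edgeR adjusted p 0.628). Col12a1, picked out after its values were seen, rose by 0.68, with an edgeR adjusted p of 0.10, 0.0999 and 0.0865 without replicate 1, 2 or 4. Among 23 matrix glycoproteins and cross-linking enzymes, 6 rose and 5 fell, or 26.1% and 21.7%, close to the 20.4% and 21.2% of all genes. The 5 were 9 with the replicate block, 8 without replicate 1, and 2 without replicate 2, 3 or 4 or by total counts. Dcn, the proteoglycan decorin, measured 0.990, 25.3, 12.8 and 9.82 CPM against 56.6, 224, 238 and 260 CPM, while the cross-linking enzyme genes Loxl1, Loxl2 and Loxl3 fell by 0.57, 0.45 and 0.95, of which Loxl2 lost its call without replicate 2, 3 or 4 and by total counts.

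Contractile and YAP target genes fell in 8 of 18 cases and none rose, or 15 fell with the replicate block and 15 without replicate 1, with 3 falling without replicate 2, 3 or 4 and 5 by total counts. Acta2, smooth muscle actin, measured 6149, 6197, 5969 and 6354 CPM in passaged and 4590, 2555, 2535 and 2211 CPM in 20 Gy libraries, and its edgeR adjusted p of 0.00928 became 0.068, 0.0626 and 0.0545 without replicate 2, 3 or 4. In the C56BL6 culture labelled only untreated, Acta2 measured 1743 to 5164 CPM, -1.08 against passaged (edgeR adjusted p 0.0255). For 20 Gy minus untreated it was 0.07 (edgeR adjusted p 0.912). Smtn, encoding smoothelin, fell by 1.16. The YAP target genes Ccn1, Ccn2 and Ankrd1 did not pass, at -0.45, -0.25 and -0.40. With the replicate block Ccn1 and Ankrd1 passed (edgeR adjusted p 0.0237 and 0.016), and without replicate 1 Ccn1 and Ccn2 did (0.00285 and 0.0286). By total counts Lats2, a kinase gene that restrains YAP, was higher (edgeR adjusted p 0.0309).

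Lysosomal genes rose in 27 of 34 tested cases and 2 fell (Manba and Gusb), with a median of 0.52. Gusb lost its call without replicate 2, 3 or 4 and under both other scalings, and Manba without replicate 3 and by total counts. The cathepsin gene Ctsf had the largest rise, 1.27, from 9.57 to 18.7 CPM up to 30.1 to 41.7 CPM. Ctsk overlapped between groups, although each number was higher at 20 Gy. It lost its call without replicate 2, 3 or 4 (edgeR adjusted p 0.0985, 0.16 and 0.12) and kept it with the replicate block (0.000204). Ribosome biogenesis genes fell in 11 of 22 cases and none rose, or 21 fell with the replicate block, while 3 fell without replicate 2 and 6 without replicate 3. Dkc1, which encodes the pseudouridine synthase dyskerin, fell by 1.33. Myc, the transcription factor that drives this programme, measured 122, 91.8, 73.0 and 76.0 CPM against 76.1, 58.0, 52.7 and 50.7 CPM (-0.59, edgeR adjusted p 0.0373, and 0.151 without replicate 2, 0.0863 without replicate 3, 0.0913 without replicate 4, 0.103 by total counts).

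Glycolysis genes fell in 9 of 17 cases and none rose, although the hexokinase gene Hk1 (0.24) was higher with the replicate block, without replicate 1 and by total counts (edgeR adjusted p 0.0306, 0.00307 and 0.0159). The lactate exporter gene Slc16a3 measured 259 to 363 CPM in passaged and 111 to 148 CPM in 20 Gy libraries, a change of -1.30. Cholesterol synthesis and uptake genes fell in 6 of 23 cases and 3 rose, or 26.1% and 13.0%, against 21.2% and 20.4% of all genes. The 3 were 1 without replicate 3 or 4 and 5 by total counts. The synthase gene Hmgcs1 fell by 0.41 and the sterol carrier gene Stard4 by 0.97. Antioxidant genes rose in 5 of 20 cases and 4 fell, where 20.4% of all genes were higher and 21.2% lower. With the replicate block 8 rose and 4 fell, where 28.3% of all genes were higher and 27.8% lower. The 5 were 9 without replicate 1, 3 without replicate 2, 3 or 4, and 11 by total counts. Sod3, extracellular superoxide dismutase, measured 2.10, 11.5, 37.4 and 33.7 CPM against 143, 296, 432 and 429 CPM, and Txnrd1 fell by 0.80. Among 11 tested adipogenic genes, Apoe and Lpin1 rose and Pparg and Cebpa fell, shares near those of all genes. Cebpa lost its call without replicate 2 or 4, and with the replicate block 4 rose, Cebpb and Plin2 being the others.

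The culture labelled only untreated at 12 d shows which differences from the passaged group were shared by cells that were not irradiated. It shares the 20 Gy libraries with one comparison and the passaged libraries with the other, so values are set side by side. Against it, 4010 of 15119 genes passed at 20 Gy (26.5%), of which 13.0% were higher and 13.6% lower. With the block 7182 passed (47.5%), and leaving out one number gave 1092 (without replicate 3), 1658 (2), 1619 (4) and 6087 (1). It differed itself from the passaged group in 7157 of 14415 genes (49.6%, with 24.2% lower), in 60.1% with the block, and in 4761 or 4400 genes without replicate 2 or 3. Its Mki67 level was 54.0, 15.3, 8.73 and 11.7 CPM, and 44 of 46 mitosis genes were lower in it than in passaged libraries. At 20 Gy 5 of 46 mitosis genes and 9 of 34 replication genes were lower than in it, or 29 and 15 with the replicate block, where 24.3% of all genes were lower. Without replicate 2, 3 or 4 no more than 1 mitosis gene and 2 replication genes were lower, and without replicate 1 the mitosis count was 15. Rrm2 was higher at 20 Gy than its 11.7 to 40.3 CPM with the block (edgeR adjusted p 0.00414, against 0.0567 without), without replicate 1 (0.00392) and in DESeq2 (0.0107). Lmnb1 measured 9.58 to 21.2 CPM in the untreated culture, a change of -2.34 against passaged (edgeR adjusted p 0.000425). For 20 Gy minus untreated Lmnb1 changed by -0.69 and did not pass (edgeR adjusted p 0.0785). It passed with the block (0.0139), without replicate 1 (0.0257) and in DESeq2 (0.0411).

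Some gene groups differed from both untreated groups, with counts against the untreated culture that were lower without replicate 2, 3 or 4. Against it, p53 targets were higher at 20 Gy in 14 of 30 cases and lower in 1, with a median of 0.52. The 14 were 2 and 5 without replicate 3 or 4. Mdm2 measured 93.5, 156, 101 and 102 CPM there, below all 20 Gy libraries (log2 fold change 1.71, edgeR adjusted p 0.00106). Gdf15 measured 0.655 to 3.65 CPM, below both other groups, with an edgeR adjusted p against 20 Gy of 0.0884 without replicate 3 and 0.0528 without replicate 4. Ccl2 measured 14.4 to 16.02 CPM, and 20 Gy was higher by 3.23. Interferon-stimulated genes were also higher in the untreated culture than in passaged libraries, in 27 of 31 tested cases with a median of 1.44, where 25.5% of all genes were higher. At 20 Gy 19 of 36 were higher again than in the untreated culture and none lower, with a median of 1.06. The mean of 35 of the 36 was highest at 20 Gy among the 3 groups, compared with 3739 of all 15208 genes. The 19 were 29 without replicate 1, and 5, 1 and 2 without replicate 2, 3 or 4. MHC class I presentation genes were higher in the untreated culture than in passaged libraries in 11 of 14 cases, with a median of 1.03. Between 20 Gy and the untreated culture they had a median difference of 0.06, with 4 higher and 1 lower, or 4 and 4 with the replicate block, and none higher without replicate 2, 3 or 4. Collagens were lower at 20 Gy than in the untreated culture in 14 of 20 cases and higher in 1, with a median of -1.32, and in 9, 6 and 8 cases without replicate 2, 3 or 4.

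Others took an intermediate level at 20 Gy. Dpt measured 163, 244, 307 and 259 CPM in the untreated culture, where 20 Gy was lower (-2.15, edgeR adjusted p 0.0151, and 0.0933, 0.0722 and 0.0506 without replicate 2, 3 or 4). Cxcl12 measured 1132 to 4370 CPM there, against 414 to 554 CPM at 20 Gy. The 20 Gy mean lay between the other means for 9 of 11 complement genes, 21 of 34 lysosomal genes and 21 of 22 ribosome biogenesis genes, compared with 6998 of all 15208 genes. Ribosome biogenesis genes were higher at 20 Gy than in the untreated culture in 13 of 22 cases, with a median of 0.59. The 13 were 20 with the replicate block and 3, 2 and 6 without replicate 2, 3 or 4. Cdkn2a measured 107.5 to 168.2 CPM in the untreated culture, where 20 Gy did not differ beyond the spread (log2 fold change 0.00, edgeR adjusted p 1.0). Cdkn2b measured 33.45 to 76.2 CPM in the untreated culture, and 20 Gy minus untreated was 0.36 (edgeR adjusted p 0.376, or 0.0274 with the replicate block). The same difference was -0.18 for Cxcl16, -0.42 for Igf1 and -0.59 for Sod3, and none passed in the main fit. Igf1 and Sod3 passed with the replicate block (edgeR adjusted p 0.0356 and 0.0196). Against 20 Gy the 10 Gy group was not tested here, and in it Mki67 measured 6.90 to 27.1 CPM, Cdkn1a 660 to 812 CPM and Ifit1 42.5 to 60.6 CPM.

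**Figure D3:**
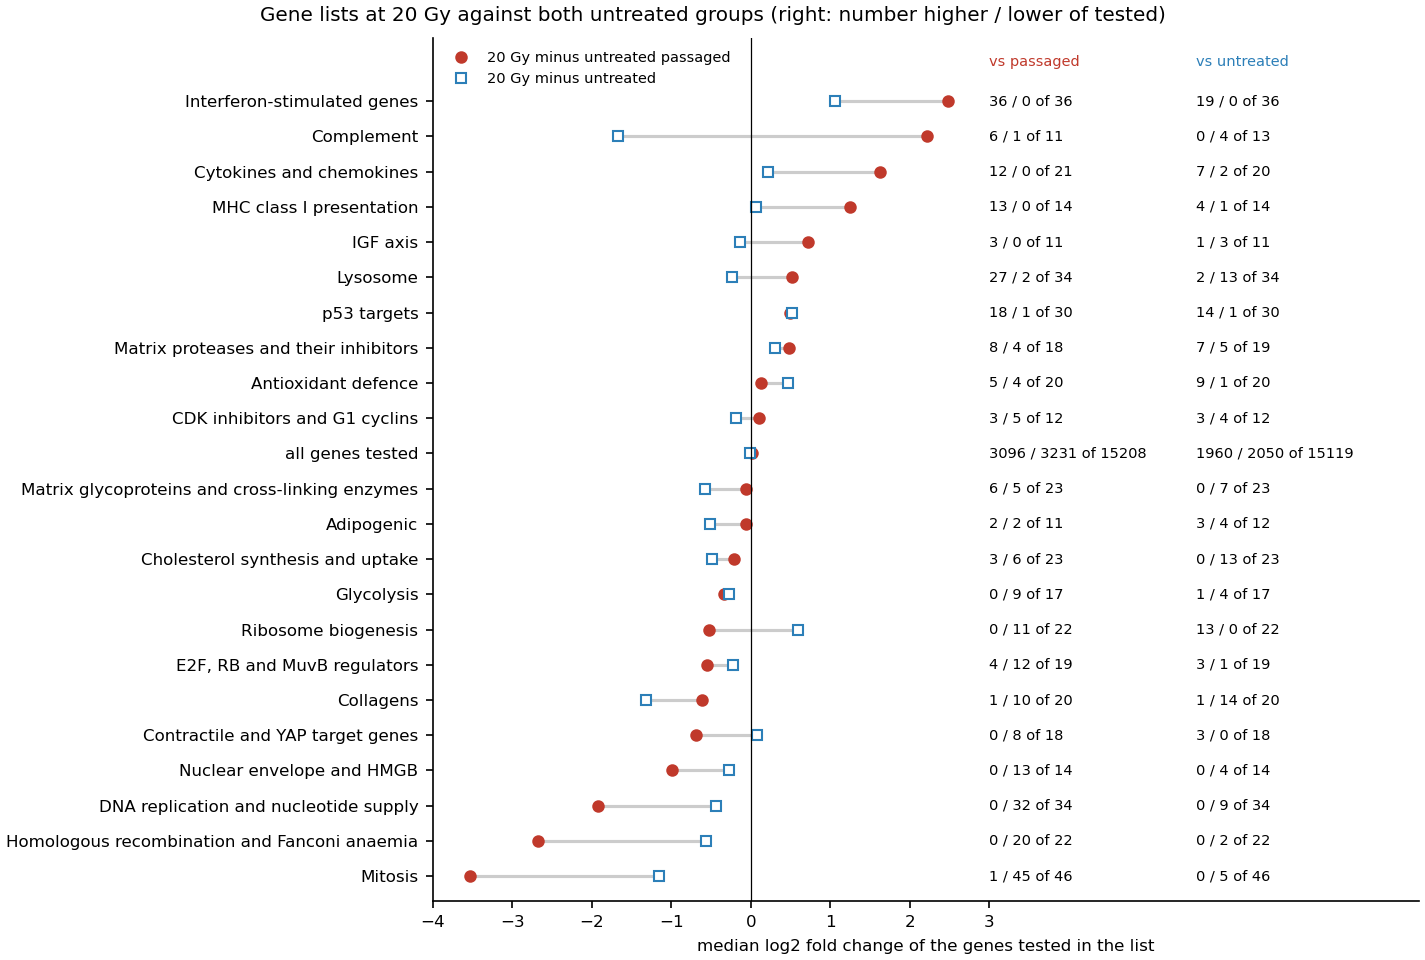
Median log2 fold change (horizontal axis) of the tested genes of each list at 20 Gy minus untreated passaged (filled circles) and 20 Gy minus untreated (open squares), with the number higher and lower of those tested at the right. Complement, lysosome and ribosome biogenesis medians change sign between the comparisons, while interferon-stimulated genes and p53 targets are above 0 and collagens below 0 in both.

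More genes were detected at 20 Gy. With every C56BL6 library at 12 d thinned to 26.65 M counts, 20951 to 21462 genes had a count in passaged libraries and 23647 to 25052 at 20 Gy. The mean difference was 3166 (exact permutation test over 4 against 4, two-sided p 0.029, the smallest that test allows). The test did not use the pairing by replicate number. The untreated culture had 20428 to 20999 and the 10 Gy libraries 23190 to 23911. Genes with at least 3 counts numbered 17034 to 17351 and 18619 to 19482. Olfactory and vomeronasal receptor genes, which belong to sensory neurons and serve here as genes a fibroblast does not use, had a count in 54 to 68 and 116 to 152 cases out of 1973. Genes too low to be tested held 0.058% to 0.12% of counts in passaged and 0.099% to 0.173% in 20 Gy libraries. What gives these low counts was not tested.

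**Figure D4:**
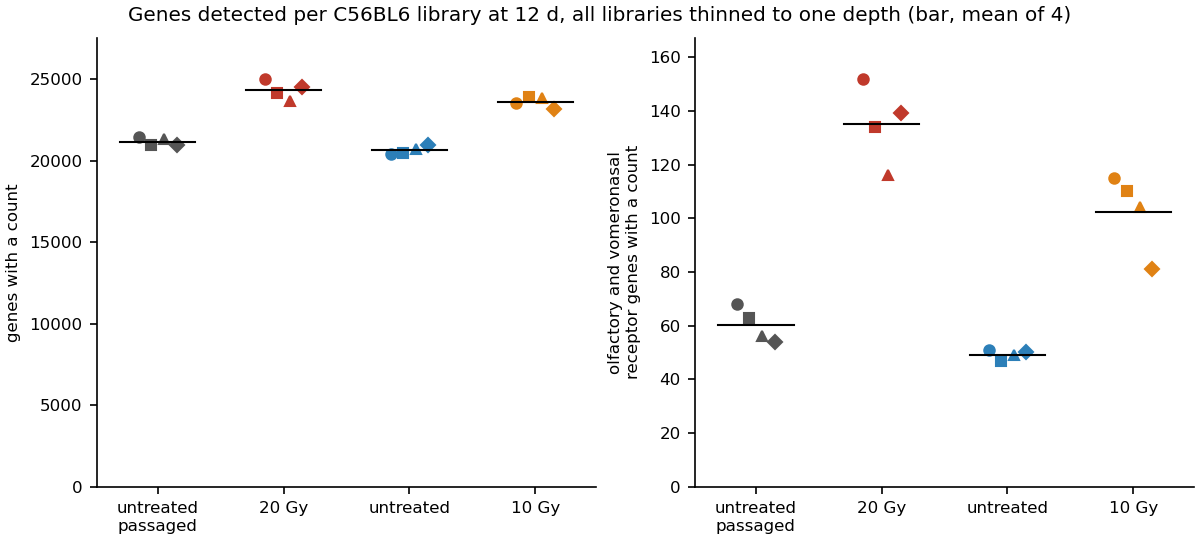
Genes with at least 1 count (left) and olfactory and vomeronasal receptor genes with at least 1 count (right) in each C56BL6 library at 12 d after thinning to one depth, with a bar at the mean of 4. The 20 Gy libraries hold 23647 to 25052 genes and the passaged libraries 20951 to 21462.

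Wild mouse fibroblasts gave a comparison with no shared library. There 1510 of 14384 genes passed (10.5%), of which 4.39% were higher and 6.10% lower, or 5472 with the replicate block, when 19.7% of all genes were higher. Without replicate 1 or 4, edgeR called 0, although 2646 and 2429 genes had an unadjusted p below 0.05, and without replicate 2 it called 246. All 46 mitosis genes and 28 of 34 replication genes fell, 28 of 35 interferon-stimulated genes rose, and 10 of 30 p53 targets rose, or 20 with the replicate block. Without replicate 2 the counts were 4 mitosis, 7 replication, 10 interferon-stimulated and 3 p53 target genes. Mki67 measured 96.5 to 192 CPM in wild passaged and 2.73 to 20.2 CPM in wild 20 Gy libraries. The difference between the C56BL6 and wild changes passed for 0 of 16039 genes (0.0%), although 880 had an unadjusted p below 0.05, and DESeq2 called 36. With the replicate block 504 passed (3.14%), 253 with the more positive change in C56BL6 (1.58%) and 251 in wild (1.56%). By that fit Lcn2 had the largest positive difference, 4.92 (SE 0.58, edgeR adjusted p 0.00312): wild libraries measured 0.562 to 4.35 CPM passaged and 3.43 to 22.4 CPM at 20 Gy. Among the lists, 6 of 20 collagens and 6 of 18 contractile and YAP target genes had the more negative change in C56BL6 with the block. Acta2 had a log2 fold change of 0.03 in wild cells. Its difference between the populations did not pass (edgeR adjusted p 0.794, or 0.0925 with the replicate block).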

How the data were processed

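PolyA RNA of primary skin fibroblasts was sequenced by the authors as a stranded mRNA library. Per the submitters' processing notes, Trim Galore, HISAT2 and featureCounts were used with GRCm39. Per the file headers, the deposited values are raw counts per gene from featureCounts 2.0.3 with Ensembl 108 annotation and no strand option. Of 56 mouse count columns, 24 were not used. Symbols came from GENCODE M39 (56236 of 56980 identifiers).

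Counts were fitted with edgeR 4.0.16 in R 4.3.3 (filterByExpr, TMM, quasi-likelihood test, Benjamini-Hochberg threshold 0.05). CPM are on TMM-scaled library sizes. DESeq2 1.42.0, other scalings, no filter, a replicate block and leaving out each replicate number were alternatives. For the main comparison a fit of all 4 C56BL6 groups at 12 d was another. Numbers pair the samples: library names share codes, and deviations of same-numbered libraries correlated at 0.48 to 0.76 across genes. The block is printed beside a named gene whose call it changed and a count given in the text that it moved by over 1.5 times. Replicates differed by 10.6 to 183 times the sampling noise (12 pairs). Whether each number is a separate animal or culture is not stated, so p-values measure the spread between these numbered libraries. On simulated counts for the main comparison (15208 genes), 62.4% of 85 genes changed 2-fold and 78.3% of 115 genes changed 4-fold were recovered. The simulation held few changed genes and no pairing by replicate number, so these shares need not hold for the data.

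Members and lists were chosen with earlier results of these data known. Named genes were the 10 largest rises and falls (adjusted p under 0.05, mean CPM at least 5, one direction in all 4 numbers), the largest change in each of 22 lists, a panel of 34 genes, and the largest differences from wild cells. A count of 3 corresponded to 0.081 to 0.111 CPM in the 8 libraries.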

Additional observations from a re-analysis of the deposited data

Results flagged for a closer look

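Of 142 group values (71 named genes in both groups), 11 had one library far from the other 3, where chance flags about 1 in 20 groups. Replicate 1 was the library apart in 8 of them. In the passaged group its Troap level was 25.1 CPM (others 13.1 to 14.9), Kif23 83.0 CPM (54.3 to 56.7) and Gpr149 57.2 CPM (1.35 to 7.52). At 20 Gy its Mcm10 level was 1.97 CPM (others 0.929 to 1.05), Foxm1 10.3 CPM (7.04 to 7.51), Acta2 4590 CPM (2210 to 2550), Apoe 7.12 CPM (18.1 to 19.4) and Gpr149 38.1 CPM (1.08 to 4.08). The other values were Dpt at 1.24 CPM in passaged replicate 4 (others 0.384 to 0.48), Apoe at 2.33 CPM in passaged replicate 2 (3.25 to 3.39) and Hmgb2 at 4.88 CPM in 20 Gy replicate 4 (6.61 to 6.80).

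The change in C56BL6 minus the change in wild cells was 4.92 for Lcn2 and -5.51 for Gpr149 with the replicate block, and neither passed without it (edgeR adjusted p 0.729 and 0.993). Wild passaged libraries were all at 0 counts for Gpr149, so its fitted difference depends on the prior count and is no bound.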

How the results depend on the processing

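For 20 Gy against passaged, 6327 genes passed and the alternatives other than leaving out a replicate stayed within 1.5 times. Leaving out one replicate number gave 3898 to 7527. Against the untreated culture, 4010 became 7182 with the replicate block and 1092 to 6087 leaving out one number. Untreated against passaged gave 7157, and 4400 to 8531 leaving out one number. Wild cells gave 1510, 2617 in DESeq2, 5472 with the replicate block and 0 to 1894 leaving out one number. The difference between populations gave 0, 36 in DESeq2, 504 with the replicate block and 0 to 1 leaving out one number. The causes were not tested. No named gene changed direction under any of these alternatives, and 6295 of the 6327 genes kept their call and direction with the block. Of 71 named genes tested, the block gave a call to 4 (Cdkn1c, Gdf15, Il6 and Gpr149) and removed none. The fits that left out a replicate number had no block. Named genes that lost their call in such a fit of 20 Gy against passaged kept it with the block. Depth limits genes under about 0.1 CPM, where 3 counts or fewer were seen, and 4 libraries a group limit small changes.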

Other observations

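Some genes usually read as markers of other cell types differed at 20 Gy from passaged libraries, while the fibroblast list had a median sum of 25100 CPM in passaged, 13900 CPM in 20 Gy and 39700 CPM in untreated libraries. Lyz2, the lysozyme gene of macrophages, measured 0.810, 2.74, 1.64 and 1.59 CPM in passaged and 9.36, 15.5, 16.1 and 10.8 CPM in 20 Gy libraries (log2 fold change 2.94, edgeR adjusted p 0.000517), while Ptprc stayed at or below 0.162 CPM. Lyz2 measured 4.76 to 28.3 CPM in the untreated culture (3.26 against passaged, and -0.30 for 20 Gy minus untreated). Rgs5, a signalling regulator of pericytes, measured 0.750 to 1.57 CPM against 14.3, 10.0, 6.20 and 4.69 CPM (3.08), and 0.639 to 15.5 CPM in the untreated culture. In the rest of the pericyte list Mcam fell by 1.30 on the log2 scale, Notch3 rose by 0.87 but lost its call without replicate 2, 3 or 4, and Cspg4 (-0.95) and Abcc9 (1.71) passed with the replicate block and under no other alternative run. The list's summed level had a median of 292 CPM in passaged and 155 CPM in 20 Gy libraries. Pecam1, an endothelial adhesion gene, measured 0.104 to 0.240 CPM against 0.820 to 1.30 CPM (2.74), and no more than 0.160 CPM in the untreated culture. Krt19, an epithelial keratin, fell by 2.04 on the log2 scale, from 55.0 to 177 CPM down to 10.3 to 54.8 CPM, with an edgeR adjusted p of 0.0282, or 0.116 without replicate 2. The untreated culture had 5.97 to 87.2 CPM of Krt19 (-0.20 for 20 Gy minus untreated). The keratin Krt5 went the other way in the libraries without replicate 1. It did not pass with all 4 numbers (-0.92, edgeR adjusted p 0.777). Without replicate 1 Krt5 was higher at 20 Gy (6.09, edgeR adjusted p 0.000235), at no more than 1.15 CPM. These genes were picked out after their values were seen.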
